A study of Mus musculus with 19 samples.

Results

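The genes of the pyruvate dehydrogenase complex and of its kinases were followed across the hearts of 19 mice. The members were Pdk1, Pdk2, Pdk3, Pdk4, Pdha1, Pdhb, Dlat, Pdhx and Dld, and every probe that the deposited signal table names with one of these 9 symbols was taken. This gave 9 of 34509 gene symbols and 13 of 46643 probes. All animals were FVB/N mice, wild type (WT) or CCM transgenic, and the CCM line lacks a working circadian clock in its cardiomyocytes alone. A normal diet was fed to 5 WT and 5 CCM mice, and a high fat diet to 4 WT and 5 CCM mice. Diets lasted 16 weeks, and every heart was taken at ZT 18, halfway through the active phase of the mice, with 1 bead array per animal. CCM mice are known to carry a dominant-negative form of CLOCK driven by a cardiomyocyte promoter, so other cells of these hearts keep their clock. With hearts from a single hour of the day, a lower or higher level and a rhythm that has moved in time cannot be told apart.

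The pyruvate dehydrogenase complex sits in the mitochondrial matrix and turns pyruvate into acetyl-CoA, the step by which carbon from glucose and lactate is committed to oxidation. Pdha1 and Pdhb encode the alpha and beta subunits of its E1 component, Dlat the E2 acetyltransferase core, Dld the E3 dihydrolipoamide dehydrogenase and Pdhx the protein that tethers E3 to the core. The kinases encoded by Pdk1 to Pdk4 phosphorylate E1 alpha and switch the complex off, and the phosphatases Pdp1 and Pdp2 reverse this. In heart and skeletal muscle, Pdk4 is known to be induced by fasting and by fatty acids through PPAR receptors, which spares glucose while fat is burned. Pdk1 is known in many cells as a target of the hypoxia-inducible factor HIF-1.

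Promoter windows of Pdk4, Pdk1 and Pdk2 are shown because Pdk4 passed its own test by diet, Pdk1 by genotype and Pdk2 by neither. All 9 genes matched the RefSeq promoter table of build GRCm38.p6, with 11 windows of 300 bases, each running from 250 bases before to 50 bases after a transcript start. The windows of Pdk4 (chr6:5496229-5496528, minus strand), Pdk1 (chr2:71872974-71873273, plus strand, the first of its windows in the table) and Pdk2 (chr11:95041322-95041621, minus strand, likewise the first) read, 5′ to 3′ on the strand of the gene, as follows, with capitals marking motif matches.
Pdk4: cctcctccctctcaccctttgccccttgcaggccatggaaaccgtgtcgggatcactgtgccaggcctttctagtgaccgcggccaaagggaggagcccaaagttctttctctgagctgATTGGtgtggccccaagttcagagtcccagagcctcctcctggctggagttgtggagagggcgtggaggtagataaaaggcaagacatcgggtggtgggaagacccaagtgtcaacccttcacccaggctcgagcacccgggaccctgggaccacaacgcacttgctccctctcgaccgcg
Pdk1: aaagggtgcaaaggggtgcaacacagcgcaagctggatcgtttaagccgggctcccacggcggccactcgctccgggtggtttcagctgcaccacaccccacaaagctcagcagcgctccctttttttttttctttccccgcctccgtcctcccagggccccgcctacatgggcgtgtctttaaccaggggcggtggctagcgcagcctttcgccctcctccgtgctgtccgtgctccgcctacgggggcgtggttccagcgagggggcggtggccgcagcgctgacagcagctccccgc
Pdk2: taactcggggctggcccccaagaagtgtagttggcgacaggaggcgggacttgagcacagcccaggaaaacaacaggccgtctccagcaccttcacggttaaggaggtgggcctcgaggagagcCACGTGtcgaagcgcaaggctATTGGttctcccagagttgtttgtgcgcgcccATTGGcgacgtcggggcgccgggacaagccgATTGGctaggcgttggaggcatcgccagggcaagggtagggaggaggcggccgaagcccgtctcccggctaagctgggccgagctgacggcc
The motifs searched on both strands were the E-box CACGTG, the hypoxia element core ACGTG, which lies inside that E-box, the nuclear receptor half-site AGGTCA, its direct repeat with 1 free base between the copies, the forkhead element GTAAACA, the D-box as TTATGTAA or TTACGTAA, and the CCAAT box. Pdk2 held CACGTG starting 126 bases before its start, a motif present in 7.15% of 32851 windows of this length. Pdk2 also held 3 CCAAT boxes, starting 105, 73 and 42 bases before its start, and Pdk4 held 1, starting 131 bases before; 37.4% of all windows have this box. No searched motif lay in the Pdk1 window shown. AGGTCA, present in 16.3% of all windows, its direct repeat (0.0396%), GTAAACA (3.65%), TTATGTAA (0.938%) and TTACGTAA (0.119%) were in none of the 11 windows of these genes, and ACGTG (19.6%) was in those of Pdk2, Pdhb and Pdk3. A match describes letters in a window and no more.

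The genotype labels were checked first. A Clock probe read 14.96 to 15.48 in the 10 CCM hearts (median 15.24) and 6.16 to 8.40 in the 9 WT hearts (median 7.91), on the scale of log2 normalized signal used throughout. Dbp, a clock-controlled transcription factor, read 8.50 to 9.06 in CCM and 10.23 to 11.30 in WT hearts, again without overlap. Another Clock probe lay closer, at 10.99 to 11.42 in CCM and 10.62 to 10.99 in WT hearts, and a further one was detected on no array. All 6 cardiomyocyte markers (such as Myh6 and Tnnt2) were detected, and their mean lay between 14.77 and 14.93 in every heart. The mean of the 3 detected of 4 atrial markers varied within each group, from 8.99 to 13.65 in WT and 10.79 to 13.16 in CCM hearts on the normal diet, and from 8.27 to 13.38 and 10.14 to 12.64 on the high fat diet, with Sln not detected. Of 5 adipocyte markers only Adipoq and Cfd were detected, while Plin1, Lep and Retn were not. The mean of Adipoq and Cfd ran from 6.76 to 7.67 in WT and 7.24 to 9.91 in CCM hearts on the normal diet. On the high fat diet it ran from 7.15 to 8.74 in WT and 6.20 to 8.60 in CCM hearts. The arrays had mean signals of 418.7 to 580.4, with 17117 to 18731 probes at a detection p under 0.05. In whole heart RNA, fewer cells of a type and less RNA per cell cannot be told apart.

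Of the 13 member probes, 10 passed the detection filter (a detection p under 0.05 on at least 4 of 19 arrays) and were tested among 19840 probes. The only Pdhx probe, 1 of 2 Pdha1 probes and 1 of 3 Dld probes were not well above background on any array. Pdk3 was detected on 9 arrays and the dimmer Pdk4 probe on 7, while the other 8 were detected on all 19. The Pdhb probe, the dimmer Pdk4 probe and the undetected Dld probe target clone sequences rather than RefSeq transcripts. A probe is called changed at a Benjamini-Hochberg adjusted p under 0.05 over all 19840 probes in limma, and ± gives the standard error of a fitted difference, or the SD where that is written.

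Pdk4 was the kinase gene that rose with the high fat diet. Its brighter probe read 12.86, 12.36, 12.88, 12.58 and 12.33 in the WT hearts on the normal diet (mean 12.60 ± 0.26, SD, n = 5). It read 14.89, 14.60, 14.84 and 13.62 in the WT hearts on the high fat diet (mean 14.49 ± 0.59, SD, n = 4). Every WT heart on the high fat diet was above every WT heart on the normal diet. The share of all probes that separate the diets in this way is not given, here or for genes named below. In CCM hearts it read 12.76, 12.75, 12.56, 14.11 and 12.68 on the normal diet (mean 12.97 ± 0.64, SD, n = 5) and 13.77, 14.45, 13.55, 14.01 and 13.75 on the high fat diet (mean 13.91 ± 0.34, SD, n = 5). The CCM groups overlapped through 1 animal, replicate 4 on the normal diet, which lay above 4 of the 5 CCM hearts on the high fat diet.

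**Figure D1:**
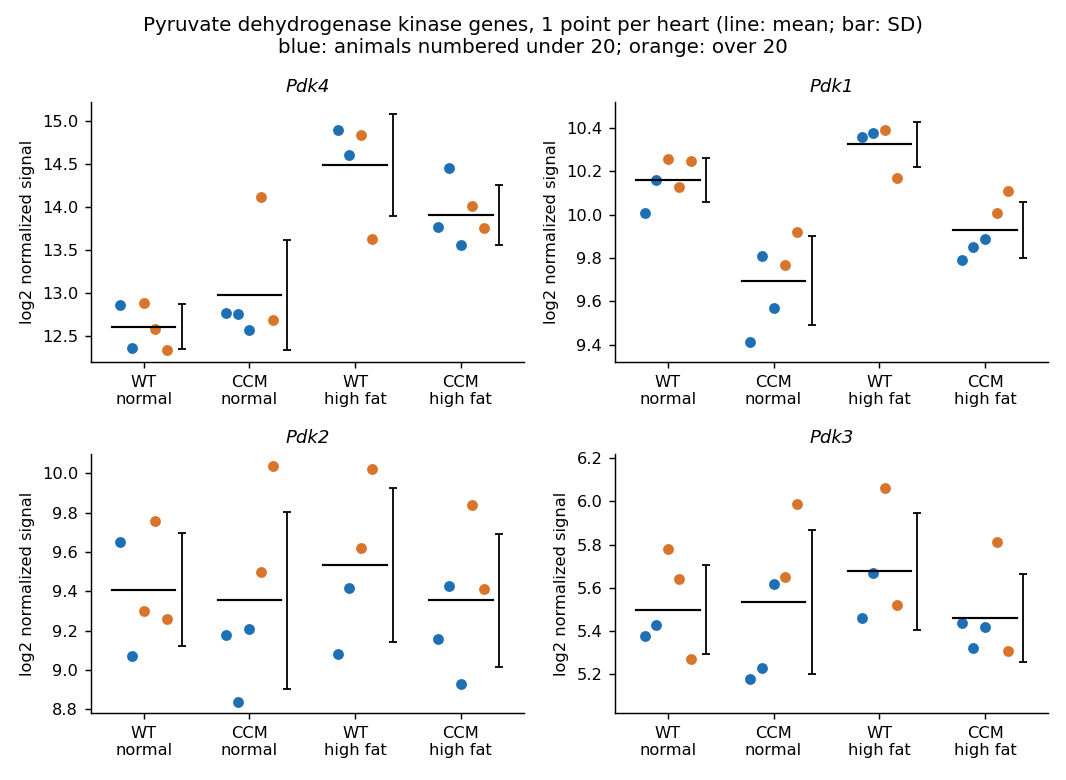
Log2 normalized signal of the 4 kinase genes in each heart, by genotype and diet, with 1 point per animal, a line at the group mean and a bar for the SD; blue marks animals numbered under 20 in the labels and orange those numbered over 20. Pdk4 stood at 12.33 to 12.88 in WT hearts on the normal diet and 13.62 to 14.89 on the high fat diet. Pdk1 had means of 10.16 in WT and 9.70 in CCM hearts on the normal diet, and 10.33 and 9.93 on the high fat diet.

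Averaged over the genotypes, Pdk4 was 2.66-fold higher on the high fat diet (1.41 ± 0.20 log2, 95% confidence interval 0.99 to 1.83, limma adjusted p = 0.00263). It was the only member probe called for this effect, 1 of 10, where 0.237% of all tested probes were called. In WT hearts alone the diet difference was 3.70-fold (1.89 ± 0.29 log2, limma adjusted p = 0.0204), again the only call among 10 member probes against 0.0252% of all probes. In CCM hearts it was 1.91-fold (0.93 ± 0.28 log2, 95% confidence interval 0.35 to 1.52) and did not pass (limma adjusted p = 0.552), and no member was called where 0.0151% of all probes were. Without replicate 4 of the CCM normal group this CCM difference was 1.22 log2 (adjusted p = 0.109), and the diet difference averaged over genotypes was 1.55 (adjusted p = 0.000112). This animal was the highest of its group, so leaving it out had to raise both differences.

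The test of the difference itself, the diet response in CCM minus that in WT hearts, gave -0.95 ± 0.40 log2 for Pdk4 (95% confidence interval -1.80 to -0.10, limma adjusted p = 1). No probe passed for this interaction in limma (0% called, 511 of 19840 probes at an unadjusted p under 0.05), and no member did. Without the same animal the interaction of Pdk4 was -0.67. Leaving out the highest CCM heart on the normal diet had to move this value up. The genotype difference of Pdk4 was 0.37 ± 0.28 on the normal diet and -0.58 ± 0.29 on the high fat diet, neither of which passed (limma adjusted p = 0.898 and 0.566). These comparisons share groups, so their values are not independent. The 2 detected adipocyte markers had a median genotype difference of 0.86 on the normal diet and -0.84 on the high fat diet. Their median interaction was -1.7, and neither marker was called. The part of fat tissue in the Pdk4 values was not tested.

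The dimmer Pdk4 probe showed none of this, with group means between 5.31 and 5.44 and a diet difference of -0.03 ± 0.08 log2. It was detected in 2 WT and 2 CCM hearts on the normal diet and in 1 WT and 2 CCM hearts on the high fat diet. The Pdk4 result therefore rests on 1 probe. Between animals numbered under 20 and over 20 in the labels, which every group holds, this brighter probe differed by 0.06 ± 0.21. Its diet difference was 1.69 among the 10 animals under 20 (limma adjusted p = 0.026) and 1.06 among the 9 over 20 (adjusted p = 1), and 1.41 with the 2 parts as a block (adjusted p = 0.0041). Atrial markers, with the ranges given above, had a median diet difference of -0.60 averaged over genotypes, none of 3 called, and the part of atrial tissue in the Pdk4 result was not tested.

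Genes known as fatty-acid-responsive PPAR targets were measured in the same hearts from a list of 18 genes that leaves out Pdk4. Of the 14 that could be tested, 3 rose with the high fat diet averaged over genotypes and none fell, beside 0.237% of all probes called. All 14 had a positive difference, with a median of 0.34 log2 against 0 for all probes. The list was written with earlier results of these data known, so counts over it, here and below, are descriptions and no independent result. The share of all probes with a positive difference is not given. Without replicate 4 of the CCM normal group the same 3 genes rose and the median was 0.36. With the animal number block these 3 and Plin2, a lipid droplet coat protein (named Adfp in the files), were called. Within either part by animal number none was, with medians of 0.35 under 20 and 0.30 over 20. Angptl4, a secreted inhibitor of lipoprotein lipase, was 5.94-fold higher (2.57 ± 0.37 log2, limma adjusted p = 0.00263; its other probe showed 0.62). Ucp3, a mitochondrial uncoupling protein homologue detected on 12 arrays, rose by 1.03 ± 0.20 (adjusted p = 0.029), and Acot2, a mitochondrial acyl-CoA thioesterase, by 0.99 ± 0.18 (adjusted p = 0.0213; its other probe showed 0.19).

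Angptl4 read 7.86, 6.91, 8.69, 7.75 and 7.81 in WT hearts on the normal diet and 10.45, 11.14, 11.31 and 9.77 on the high fat diet. In CCM hearts it read 7.04, 7.42, 7.11, 9.82 and 7.54 on the normal diet and 8.55, 10.72, 9.86, 10.52 and 10.65 on the high fat diet. The diets did not overlap in WT hearts, and in CCM hearts they overlapped through the same normal-diet animal that was high for Pdk4. Its diet difference was 2.87 ± 0.53 log2 in WT (limma adjusted p = 0.075) and 2.27 ± 0.50 in CCM hearts (adjusted p = 0.233), and it passed in both genotypes once that animal was left out. That animal was picked for its high Pdk4 and was the highest of its group for Angptl4. Leaving it out therefore had to raise the CCM difference, and the later pass is no independent result. No other gene of the list was called within a genotype in these fits, and with the animal number block Angptl4 also passed in WT hearts. The list's median diet difference was 0.38 in WT, with 13 of 14 positive, and 0.36 in CCM hearts, with 14 of 14 positive. The interaction of Ucp3 was -0.92 ± 0.39, at an unadjusted p under 0.05, and did not pass (limma adjusted p = 1).

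**Figure D2:**
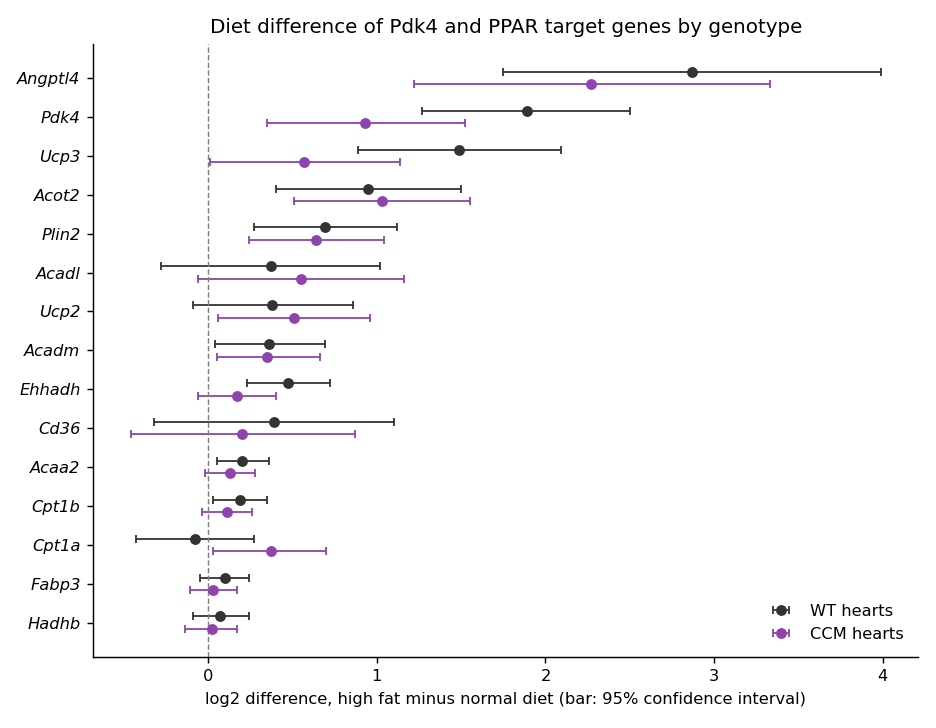
Diet difference (log2, high fat minus normal) of Pdk4 and of the 14 tested PPAR target genes in WT and in CCM hearts, with bars for 95% confidence intervals, ordered by the mean over genotypes. Angptl4 and Pdk4 lead, Pdk4 with 1.89 in WT and 0.93 in CCM hearts.

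The CCM heart with high Pdk4 on the normal diet was also high for several of these genes. Its Pdk4 signal was 1.42 log2 above the mean of the other 4 animals of its group. Angptl4 read 9.82 there against 7.04 to 7.54 in the other 4, Ucp3 5.94 against 5.02 to 5.27 and Ucp2 8.65 against 7.53 to 8.36. Of the 14 list genes, 5 were highest of the group in this animal, beside 14.9% of all probes, and the median gap to the other animals was 0.20 against 0.01 for all probes. Cd36, the fatty acid transporter, was lower there, at 8.55 against 8.62 to 9.58.

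Pdk1 was the only kinase gene called by genotype, though its genotype effect was not shown to differ from those of Pdk2 and Pdk4 (pair tests below). It read 10.01, 10.16, 10.26, 10.13 and 10.25 in WT hearts on the normal diet (mean 10.16 ± 0.10, SD, n = 5) and 9.41, 9.81, 9.57, 9.77 and 9.92 in CCM hearts (mean 9.70 ± 0.20, SD, n = 5). On the high fat diet it read 10.36, 10.38, 10.39 and 10.17 in WT hearts (mean 10.33 ± 0.11, SD, n = 4) and 9.79, 9.85, 9.89, 10.01 and 10.11 in CCM hearts (mean 9.93 ± 0.13, SD, n = 5). On each diet every CCM heart lay below every WT heart. Such separation of small groups also occurred at background, where the undetected Pdha1 probe did not overlap between genotypes on the high fat diet. The share of all probes that separate in this way, here or for Pdk4 by diet, is not given.

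Averaged over the diets, Pdk1 was 1.35-fold lower in CCM hearts (-0.43 ± 0.07 log2, 95% confidence interval -0.58 to -0.28, limma adjusted p = 0.000825), the only call among the 10 member probes, where 4.15% of all probes were called. The difference was -0.46 ± 0.10 on the normal diet (1.38-fold, limma adjusted p = 0.0155), where Pdk1 was again the only member called and 1.45% of all probes were. On the high fat diet it was -0.39 ± 0.10 (1.31-fold) and did not pass (limma adjusted p = 0.0694), so no member was called beside 1.59% of all probes. Both differences lie within 1 standard error of each other, with an interaction of 0.07 ± 0.14 log2.

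The diet difference of Pdk1 was 0.20 ± 0.07 averaged over genotypes (limma adjusted p = 0.492) and did not pass. Within the parts by animal number the genotype difference was -0.51 under 20 (limma adjusted p = 0.0415) and -0.29 over 20 (adjusted p = 0.231), and -0.41 with the parts as a block (adjusted p = 0.000522). The 4 red blood cell markers, all detected, had a median genotype difference of -0.42 log2 averaged over diets, with none called. Their mean ran from 11.90 to 12.42 in WT and 11.04 to 11.83 in CCM hearts on the normal diet, and from 12.06 to 12.44 and 11.59 to 12.41 on the high fat diet. Of 3 detected smooth muscle markers (Cnn1 was not), Acta2, smooth muscle actin, was lower in CCM hearts by 0.49 ± 0.12 (limma adjusted p = 0.02), and the mean of the 3 ran from 8.64 to 9.48 in CCM and 8.71 to 9.21 in WT hearts on the normal diet, and from 8.56 to 8.98 and 8.78 to 10.03 on the high fat diet. The part of these cells in the Pdk1 result was not tested. None of 4 endothelial, 4 fibroblast, 3 macrophage (Cd163 not detected) and 6 cardiomyocyte markers was called by genotype.

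Pdk2, a widely expressed kinase isoform, was called for neither factor. It read 9.65, 9.07, 9.30, 9.76 and 9.26 in WT and 9.18, 8.84, 9.21, 9.50 and 10.04 in CCM hearts on the normal diet. On the high fat diet it read 9.08, 9.42, 9.62 and 10.02 in WT and 9.16, 9.43, 8.93, 9.84 and 9.41 in CCM hearts. All 4 groups overlapped, and the differences were -0.12 ± 0.16 log2 by genotype (95% confidence interval -0.45 to 0.21) and 0.06 ± 0.16 by diet (-0.27 to 0.39). Pdk2 differed between the animal numbers instead, by 0.44 ± 0.12 higher over 20 (limma adjusted p = 0.0245), beside 13.8% of all probes called between these parts.

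Pdk3 was near background. It was detected in 2 of 5 WT and 3 of 5 CCM hearts on the normal diet, and in 3 of 4 WT and 1 of 5 CCM hearts on the high fat diet, with values from 5.18 to 6.06 over all hearts. The groups overlapped, and its differences were -0.09 ± 0.11 log2 by genotype and 0.05 ± 0.11 by diet, none called. At this signal a change is understated.

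**Figure D3:**
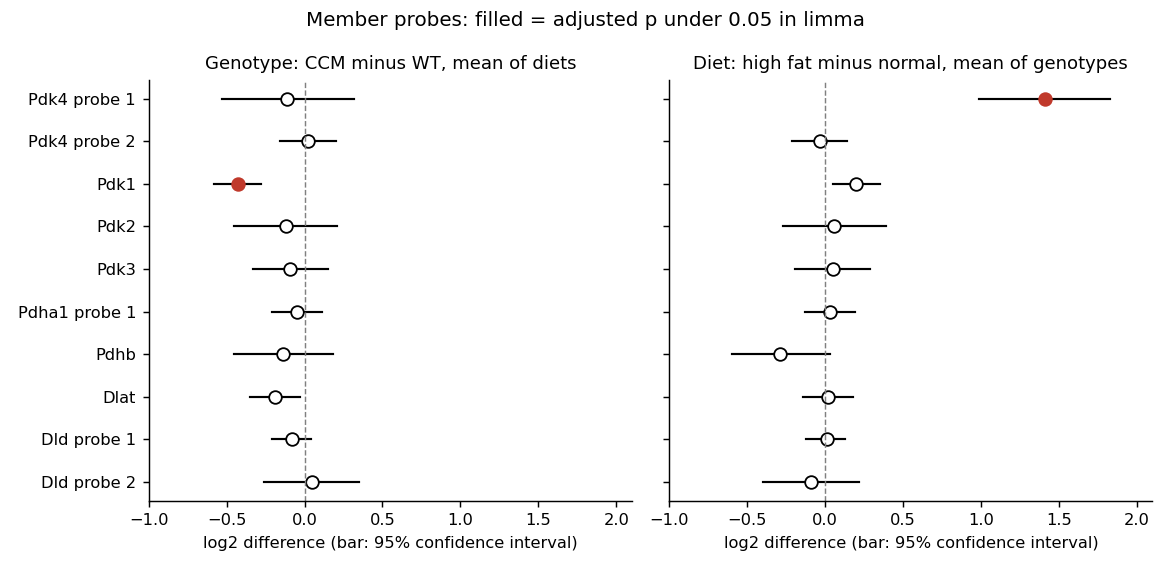
Log2 difference of the 10 tested member probes by genotype (CCM minus WT, mean of both diets) and by diet (high fat minus normal, mean of both genotypes), with bars for 95% confidence intervals; filled points passed an adjusted p of 0.05 in limma. Pdk1 passed by genotype (-0.43) and the brighter Pdk4 probe by diet (1.41).

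Whether the isoforms differed from one another in these effects was tested on the log2 difference between kinase probes within each heart, by an exact two-sided permutation test that relabels animals within the other factor (31752 relabellings, smallest p 3e-05). All 6 pairs were compared for both effects, and p-values were adjusted over the 12 tests. The size of such a difference depends on the probes, so only its change between groups was read. Pdk4 rose with diet relative to Pdk1 by 1.21 (exact p = 0.000535, adjusted p = 0.00214) and relative to Pdk2 by 1.35 (exact p = 0.000252, adjusted p = 0.00151). The change relative to Pdk3 was 1.36 (exact p = 0.000157, adjusted p = 0.00151), but Pdk3 was not detected on 10 of 19 arrays, so pairs with it are given as values and not read as a difference between isoforms. Among Pdk1, Pdk2 and Pdk3 no pair differed in its diet effect beyond the spread, with changes of -0.14, -0.15 and -0.01 (adjusted exact p = 0.645, 0.347 and 0.966).

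By genotype no pair of detected kinases passed. Pdk3 relative to Pdk1 changed by 0.34 (exact p = 0.00844, adjusted p = 0.0253), with the same limit. Pdk2 relative to Pdk1 changed by 0.31 (exact p = 0.0889, adjusted p = 0.213) and Pdk4 relative to Pdk1 by 0.32 (exact p = 0.202, adjusted p = 0.347). Their SDs within groups were 0.39 and 0.47, against 0.23 for the Pdk3 pair. The Pdk4 value averaged opposite directions on the 2 diets. Its group means were 2.44 in WT and 3.28 in CCM hearts on the normal diet, and 4.16 and 3.98 on the high fat diet. The genotype effect of Pdk1 was thus not shown to differ from those of Pdk2 and Pdk4, although Pdk1 alone passed its own test. With animals relabelled also within the parts under and over 20, a test added after seeing the data, Pdk2 relative to Pdk1 changed by 0.34 by genotype (adjusted exact p = 0.128) and Pdk4 relative to Pdk1 by 0.33 (adjusted exact p = 0.399). The 3 pairs without Pdk1 changed by 0.01, -0.02 and 0.03 by genotype.

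**Figure D4:**
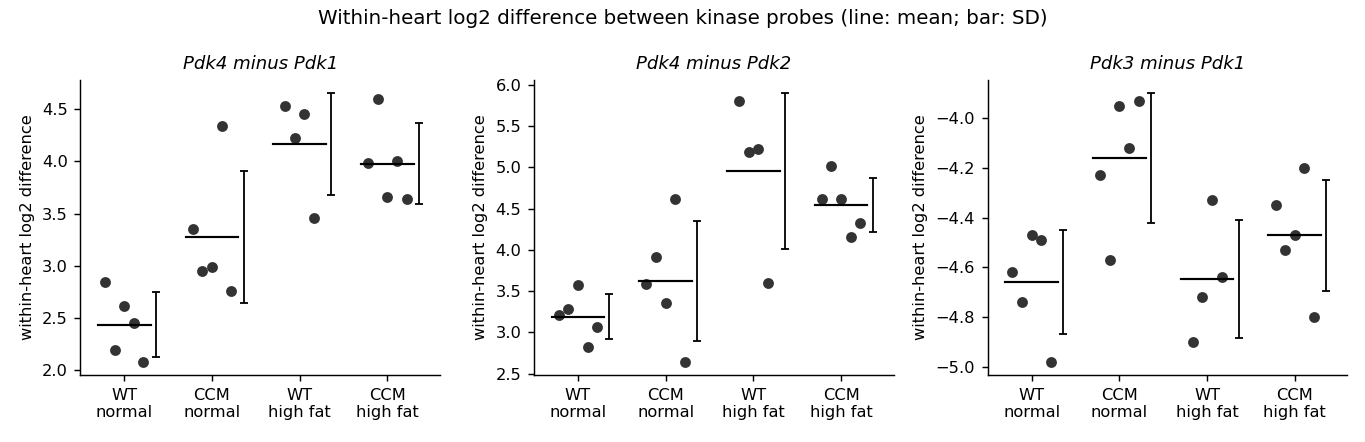
Within-heart log2 difference between kinase probes for Pdk4 minus Pdk1, Pdk4 minus Pdk2 and Pdk3 minus Pdk1, with 1 point per animal, a line at the group mean and a bar for the SD. The group means of Pdk4 minus Pdk1 were 2.44 in WT and 3.28 in CCM hearts on the normal diet, and 4.16 and 3.98 on the high fat diet.

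For the genes of the complex itself no difference between the groups passed. None of the 5 tested subunit probes was called in any of the 7 contrasts. By genotype their differences ran from -0.19 to 0.05 log2, with 95% confidence limits between -0.45 and 0.35, and by diet from -0.29 to 0.03, with limits between -0.60 and 0.22. Changes of that size remain possible. Pdha1, the E1 alpha subunit that the kinases phosphorylate, had group means between 13.98 and 14.06, and differences of -0.05 ± 0.08 by genotype and 0.03 ± 0.08 by diet.

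Dlat, the E2 core, had the smallest p of the subunits by genotype. It read 11.94, 11.66, 11.80, 12.10 and 11.91 in WT and 11.58, 11.68, 11.59, 11.71 and 12.01 in CCM hearts on the normal diet. On the high fat diet it read 11.76, 11.88, 11.97 and 12.09 in WT and 11.52, 11.84, 11.58, 11.82 and 11.78 in CCM hearts. The genotypes overlapped on both diets, and the difference of -0.19 ± 0.08 did not pass (limma adjusted p = 0.23). Pdhb, the E1 beta subunit, had group means of 8.81 in WT and 8.72 in CCM hearts on the normal diet, and 8.57 and 8.39 on the high fat diet. Its diet difference of -0.29 ± 0.15 did not pass either (limma adjusted p = 0.626).

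Dld, whose E3 enzyme also serves the sister complexes, had a probe with group means of 13.00 to 13.09 and another with means of 11.83 to 11.97. The latter separated the animals by number in all 4 groups. It read 12.37 and 12.01 in the WT hearts on the normal diet numbered under 20, and 11.68, 11.85 and 11.61 in those over 20. In CCM hearts on the same diet it read 12.22, 12.19 and 12.35 against 11.58 and 11.49. On the high fat diet it read 12.17 and 11.88 against 11.42 and 11.84 in WT, and 12.21, 12.05 and 12.01 against 11.46 and 11.57 in CCM hearts. The difference was -0.55 ± 0.07 (over 20 minus under 20, limma adjusted p = 4.64e-05), while the other Dld probe showed 0.12 ± 0.05 (adjusted p = 0.138). Between these parts 13.8% of all probes were called, and the share of all probes that separate in all 4 groups is not given. The cut at 20 is not in the labels, and the labels do not say what the numbers stand for.

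**Figure D5:**
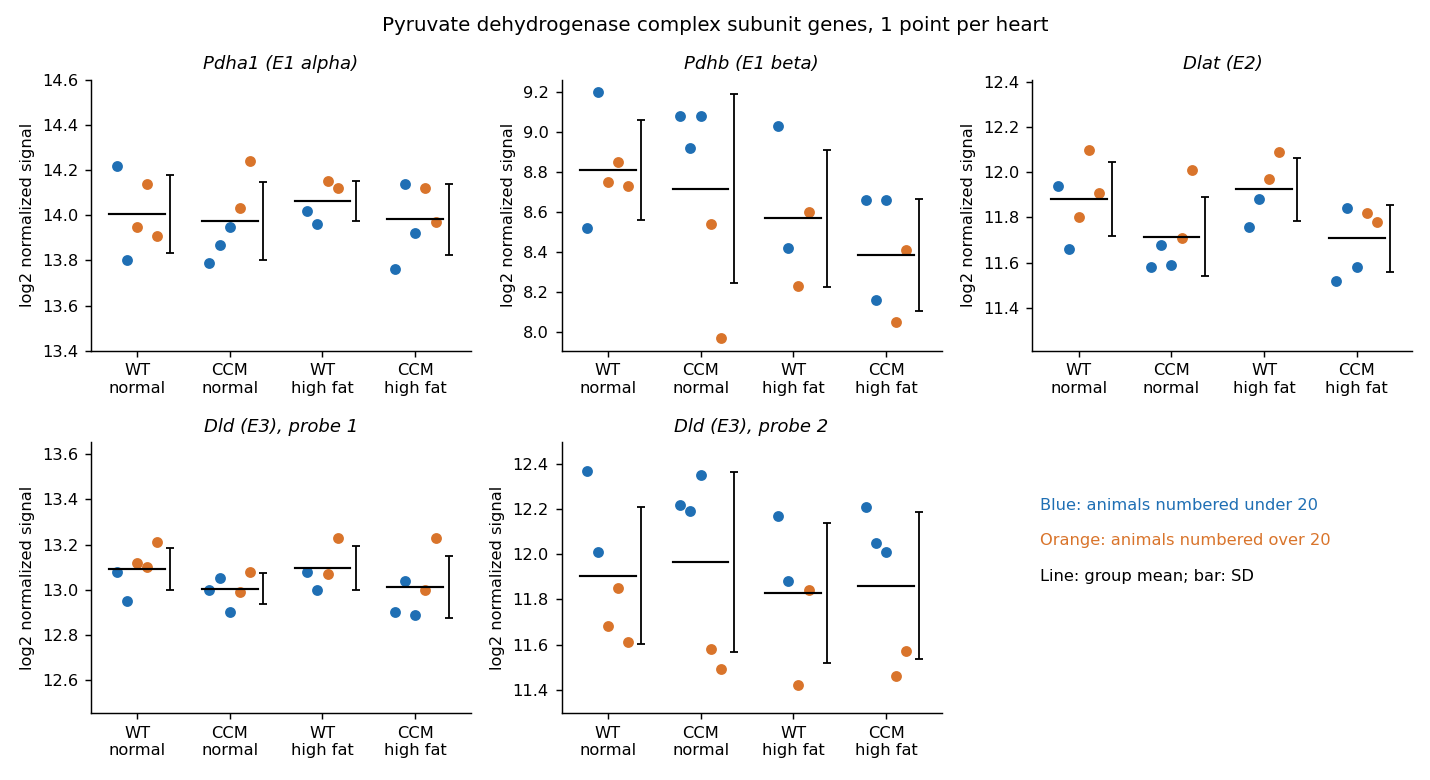
Log2 normalized signal of the 5 tested subunit probes in each heart, by genotype and diet, with 1 point per animal, a line at the group mean and a bar for the SD; blue marks animals numbered under 20 and orange those over 20. No subunit probe was called between groups, and the second Dld probe differed by -0.55 log2 between the animals over 20 and those under 20.

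Several members varied together between animals of the same group. Over the 19 hearts, with group means removed, Pearson's r was 0.86 between Pdk2 and Dlat, 0.84 between Pdha1 and Dlat and 0.79 between Pdk2 and Pdha1. It was -0.78 between Pdhb and Dlat, -0.77 between Pdhb and both Pdha1 and Pdk2, and 0.66 between Pdhb and the second Dld probe. Pdk1 and the second Dld probe gave -0.71. The 2 detected probes of the same gene, Dld, gave -0.45 with each other. These points share arrays and the division by animal number, so the values are descriptions. The differences over 20 minus under 20 were 0.44 log2 for Pdk2 and -0.55 for the second Dld probe, which passed, and 0.18 for Dlat, 0.13 for Pdha1 and -0.36 for Pdhb, which did not (limma adjusted p = 0.0667, 0.241 and 0.0691).

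The enzymes that oppose the kinases and complete the complex gave little signal. Of 6 genes of the phosphatases and of lipoylation, 2 were tested and neither changed in any contrast: Pdp1, a phosphatase that reactivates E1, differed by -0.18 ± 0.11 by genotype (limma adjusted p = 0.579) and Lias, the lipoic acid synthase, by -0.21 ± 0.11 by diet (adjusted p = 0.624). In the sister complexes for 2-oxoglutarate and branched-chain keto acids, which share Dld, all 8 genes were tested and 2 fell in CCM hearts, both of the branched-chain complex, averaged over diets (4.15% of all probes called) and on the high fat diet (1.59%). Dbt, its E2 core, was lower by 0.38 ± 0.06 log2 averaged over diets (limma adjusted p = 0.000891) and by 0.49 ± 0.09 on the high fat diet (adjusted p = 0.00617), with -0.21 and -0.30 in its other probe. Bckdhb, its E1 beta subunit, was lower by 0.34 ± 0.07 averaged over diets (adjusted p = 0.00581) and by 0.47 ± 0.10 on the high fat diet (adjusted p = 0.0177). Bckdk, the kinase of that complex, showed 0.06 ± 0.10 (adjusted p = 0.921), and Dhtkd1, an E1-like enzyme, -0.17 ± 0.10 (adjusted p = 0.547). The list's median genotype difference was -0.04 against 0 for all probes. Among animals under 20 only Dbt fell averaged over diets, and among those over 20 neither did. By diet, averaged over genotypes, Bckdhb showed -0.29 ± 0.07 (limma adjusted p = 0.123) and Dbt -0.16 ± 0.06 (adjusted p = 0.581), neither of which passed.

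Of 12 genes that supply or use pyruvate, 7 were tested and none changed in any contrast without the animal number block, with a median genotype difference of -0.16. Ldha, a lactate dehydrogenase subunit, came nearest (-0.22 ± 0.06 by genotype, limma adjusted p = 0.0555) and was called with the animal number block, Mpc2 of the mitochondrial pyruvate carrier showed -0.31 ± 0.19 (adjusted p = 0.579) and Pcx, pyruvate carboxylase, -0.20 ± 0.10 (adjusted p = 0.451). By diet the smallest p-values were those of Gpt2, an alanine aminotransferase (-0.24 ± 0.12), Cs, citrate synthase (0.13 ± 0.09), and Ldha (-0.10 ± 0.06), none of which passed.

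Of 10 genes of glucose entry and glycolytic control, 8 were tested and 1 rose in CCM hearts averaged over diets, beside 4.15% of all probes called. This was Hk1, a hexokinase, by 0.23 ± 0.05 averaged over diets (limma adjusted p = 0.0183), with 0.05 in its other probe, and it was not called within either part by animal number. The glucose transporter Slc2a1 (-0.26 ± 0.10, adjusted p = 0.199) and Pfkfb2, which makes an activator of phosphofructokinase (-0.26 ± 0.10, adjusted p = 0.195), did not pass. Neither Slc2a1 (-0.23 ± 0.10), Pfkfb2 (0.24 ± 0.10) nor the phosphofructokinase Pfkm (-0.06 ± 0.05) passed by diet.

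None of 11 tested regulators, of 12 listed, changed in any contrast. Hif1a, the listed gene for HIF-1, was the regulator not tested. By genotype Ppargc1a, the coactivator PGC-1 alpha, showed -0.48 ± 0.21 (limma adjusted p = 0.305), Foxo1, a forkhead factor, -0.21 ± 0.09 (adjusted p = 0.266), and Foxo3, of the same family, -0.25 ± 0.13 (adjusted p = 0.446). By diet Ppara, the fatty acid receptor of heart, showed -0.13 ± 0.21 (adjusted p = 0.872), Esrra, an orphan nuclear receptor, 0.15 ± 0.14 and Pparg 0.08 ± 0.09. Transcript levels do not report the activity of these factors. Of the 14 tested PPAR targets, 1 fell in CCM hearts, beside 4.15% of all probes called averaged over diets: Ehhadh, a peroxisomal oxidation enzyme, by 0.40 ± 0.08 averaged over diets (adjusted p = 0.00505) and by 0.55 ± 0.12 on the high fat diet (adjusted p = 0.0168, beside 1.59% of all probes called), with no call within either part by animal number. Cpt1b, the muscle carnitine palmitoyltransferase, showed 0.11 ± 0.05 by genotype (adjusted p = 0.392). By diet, averaged over genotypes, Ehhadh showed 0.32 ± 0.08 (limma adjusted p = 0.163) and did not pass.

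The genes most like Pdk4 and Pdk1 were ranked by Pearson's r over the 19 animals among 11669 genes detected on every array. Closest to Pdk4 were Angptl4 (0.923, and 0.777 with group means removed), the mitochondrial glutamate carrier Slc25a22 (0.865, and 0.708), 4732470M22Rik (0.834, and 0.732) and Mgll, which hydrolyses monoglycerides (0.811, but 0.284). The lowest were Slc25a29 (-0.800, and -0.489), LOC100044475 (-0.787, and -0.723) and Dusp19 (-0.774, and -0.526). Closest to Pdk1 were Pigp (0.937, and 0.867 with group means removed), OTTMUSG00000016644 (0.903, and 0.694), Ostm1 (0.903, and 0.671), Tmem8 (0.902, and 0.848) and Shmt1, a serine hydroxymethyltransferase (0.892, and 0.578), and the lowest were Amigo1 (-0.929, and -0.792), Slc1a4 (-0.872, and -0.521) and 4930511A08Rik (-0.868, and -0.58). No gene stood among the nearest of both kinases.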

How the data were processed

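RNA of 19 hearts was measured on bead arrays, 1 per animal. The authors deposited average bead intensities on a linear scale, with a detection p-value for each, per the file headers. Means differed between arrays, so these intensities were taken as not yet normalized. A deposited table of normalized intensities (column medians 98.2 to 98.3) served as an alternative only, and its normalization method is not stated by the labels or headers. The submitters' processing notes name BeadStudio 3.

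Here intensities were passed through neqc of limma 3.58.1 in R 4.3.3, which corrects background from the detection p-values, adds an offset of 16 and quantile normalizes. Probes detected at p under 0.05 on at least 4 arrays entered lmFit and eBayes with a mean per group (residual degrees of freedom 15, prior 3.67). All tests were two-sided, with p-values adjusted by Benjamini-Hochberg over 19840 probes. Precision was limited by the number of arrays and, for dim probes, by signal over background. Correlations were 0.963 to 0.993 within and 0.966 to 0.994 between groups, and no pair of arrays had equal signals for more than 0.00214% of probes. The labels number the animals but name no litters or cages.

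The members, the 6 pathway lists, the marker lists and the alternatives were chosen with earlier results of these data known. Named from the lists were genes called in any contrast and up to 3 per list with the smallest p by genotype and by diet, each through its brightest detected probe. Some results that this rule would name are not reported here, and the list counts leave them out. Named for likeness were the 5 genes with the highest and the 3 with the lowest r to each called kinase. The fit was tested on simulated data with known changes. Alternatives covered background correction, normalization, detection filters, the authors' values, gene-level rows, eBayes settings, array weights, animal number, fits of 2 groups and leaving out animals. List counts without CCM normal replicate 4 and by animal number, and the kinase pair test within the animal number parts, were added after seeing the data.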

Additional observations from a re-analysis of the deposited data

Results flagged for a closer look

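In 40 sets of values, the 10 tested member probes in each of the 4 groups, 3 held an animal that stood far from its group by Dixon's 95% criterion, which chance meets in about 1 set in 20. Pdk4 read 14.11 in CCM normal replicate 4, where the next animal read 12.76, a gap of 0.872 of the group's range. Pdk1 read 10.17 in WT high fat replicate 4, below the next animal at 10.36 (0.852 of the range). Pdk3, near background, read 5.81 in CCM high fat replicate 4, above the next at 5.44 (0.747 of the range).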

How the results depend on the processing

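No called value changed sign, while some small differences that did not pass did, such as the genotype differences of Pdk2, Pdk3 and Pdha1. The diet effect of Pdk4 averaged over genotypes stayed called without each animal in turn (1.34 to 1.56), and so did the genotype effect of Pdk1 averaged over diets (-0.46 to -0.39). Among animals numbered over 20 alone both were lost, Pdk4 at 1.06 (limma adjusted p = 1) and Pdk1 at -0.29 (adjusted p = 0.231), and member probes called fell from 1 to 0. The remaining calls were less stable. Pdk1 on the normal diet was lost, leaving 0 members called, with a median shift in place of quantile normalization (-0.41, adjusted p = 0.41), under 20 (-0.49, 0.28), over 20 (-0.37, 0.248) and in a fit of the 2 groups (-0.46, 0.103); leaving out animals gave -0.52 to -0.39 and 0 to 1 member called, lost without CCM normal replicate 3 (adjusted p = 0.0527). Pdk1 on the high fat diet was gained, making 1 member called, without background correction (-0.36, adjusted p = 0.0326), with the authors' values (-0.36, 0.0338), array weights (-0.41, 0.0203) and the animal number block (-0.38, 0.04); it was -0.22 (adjusted p = 1) over 20, and -0.45 to -0.36 with 0 to 1 member called on leaving out animals, called without CCM high fat replicate 5 and CCM normal replicates 1 and 5. Pdk4 by diet in WT hearts was lost, leaving 0 members called, with all probes tested (1.89, adjusted p = 0.0508), under 20 (2.14, 0.157), over 20 (1.63, 0.832), without the 3 dimmest arrays by mean signal (1.95, 0.11) and in a fit of the 2 groups (1.89, 0.0696). Leaving out animals gave 1.75 to 2.18 and 0 to 1 member called, with the call lost without WT high fat replicates 1, 2 and 3 or WT normal replicates 1, 2 and 5 (adjusted p up to 0.135). The genotype change of Pdk3 relative to Pdk1 was 0.30 to 0.39 on leaving out animals, lost without WT high fat replicate 1 (adjusted exact p = 0.0659). Without WT high fat replicate 4, Pdk2 relative to Pdk1 passed (0.42, adjusted exact p = 0.0447). Over all probes, calls by genotype ran from 75 to 413 on the normal diet, 39 to 468 on the high fat diet and 173 to 1141 averaged; calls by diet ran from 0 to 20 in WT hearts, 0 to 13 in CCM hearts and 0 to 222 averaged; the interaction gave 0 throughout. The median shift moved the all-probe median of the interaction to -0.13, with Pdk4 at -1.14. No paired analysis was possible because every animal number belongs to 1 animal and replicate numbers were given in accession order. Dim signals limit Pdk3 and the second Pdk4 probe, and say nothing of Pdhx.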
